A study of Rattus norvegicus with 6 samples.

Results

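The circadian clock genes Bmal1, Clock, Per1, Per2, Per3, Cry1, Cry2, Dbp, Nr1d1 and Nr1d2 were followed across left ventricles of male Wistar rats on 3 diets. The members were every probe set that the platform annotation assigns to 1 of these symbols alone, which gave 18 probe sets for all 10 genes, of 31042 tested probe sets in all. The tested probe sets represent 14217 named genes. Messenger RNA of the left ventricle was measured on Affymetrix arrays, where a probe set is a group of short probes against 1 transcript and its value is a log2 expression level. The rats on the Western plus DHA diet received a Western diet with docosahexaenoic acid (DHA), a long-chain fatty acid abundant in fish oil. The Western group received that diet without the added fatty acid, and the Control group a control diet. All rats started at 6 weeks of age, stayed on their diet for 12 weeks, were 18 weeks old at collection and were fasted overnight beforehand. Each diet had 10 rats and 2 arrays, and each array carried RNA pooled from 5 rats. The limma p-values of differences between diets rest on the spread between pools within diets, taken over the 3 diets together. No p-value below measures the spread between rats. No source used here gives the hour of tissue collection, and its part in the levels below was not tested.

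The circadian clock is a feedback loop of transcription that runs in most cells, heart muscle cells among them. The proteins BMAL1 and CLOCK bind as a pair to E-boxes and switch on the Per and Cry genes, whose proteins then hold that pair back, while the same pair also drives Nr1d1, Nr1d2 and Dbp. The nuclear receptors REV-ERB alpha and beta, encoded by Nr1d1 and Nr1d2, repress Bmal1 through ROR elements, and in rodent heart Bmal1 messenger RNA is known to run in a phase opposite to that of Per and Nr1d1 messenger RNA over the day.

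Promoter windows of Bmal1, Per2 and Nr1d1 are shown because these were the 3 members with the largest spread between pools of a diet, and because the loop is known to close through elements of these genes. The windows are from RefSeq on rat assembly GRCr8 and run from 250 bases before to 50 bases after a start site, 5′ to 3′ on the strand of the gene. Windows were found for 9 of the 10 members, all but Cry1, with 11 windows in all, and 5 windows held a match. The letters searched on both strands were CACGTG (E-box), CACGTT (E'-box), TTATGTAA or TTACGTAA (D-box, the site of DBP and its relatives) and TAGGTCA (core of the ROR element), and capitals mark the matches. The Bmal1 window, whose start site lies 106 bases inside the outermost annotated start, lies at chr1:176766078-176766377 on the plus strand and holds the ROR element core 16 to 10 bases before the start site.
Bmal1: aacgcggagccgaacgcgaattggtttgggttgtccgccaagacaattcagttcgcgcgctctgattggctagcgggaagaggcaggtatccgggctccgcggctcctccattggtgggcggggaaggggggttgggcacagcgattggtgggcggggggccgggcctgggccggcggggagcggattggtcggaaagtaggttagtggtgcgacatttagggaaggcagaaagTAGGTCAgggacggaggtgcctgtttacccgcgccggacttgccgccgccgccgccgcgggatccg
The Per2 window, 76 bases inside, lies at chr9:99496944-99497243 on the minus strand. It holds a D-box 192 to 185 bases and an E'-box 62 to 57 bases before the start site.
Per2: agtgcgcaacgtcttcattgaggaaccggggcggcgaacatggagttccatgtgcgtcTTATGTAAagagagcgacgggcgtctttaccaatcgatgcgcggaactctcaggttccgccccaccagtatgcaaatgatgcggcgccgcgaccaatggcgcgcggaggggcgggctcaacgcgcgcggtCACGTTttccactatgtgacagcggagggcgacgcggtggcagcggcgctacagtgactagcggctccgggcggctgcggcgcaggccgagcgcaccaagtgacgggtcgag
Of the windows of Nr1d1, both on the minus strand, the one at the annotated gene end (chr10:84231763-84232062) holds an E'-box on the opposite strand 174 to 169 bases before the start site, and the one 2358 bases further into the gene (chr10:84229405-84229704) holds an E-box 191 to 186 bases before its start site.
Nr1d1 at the gene end: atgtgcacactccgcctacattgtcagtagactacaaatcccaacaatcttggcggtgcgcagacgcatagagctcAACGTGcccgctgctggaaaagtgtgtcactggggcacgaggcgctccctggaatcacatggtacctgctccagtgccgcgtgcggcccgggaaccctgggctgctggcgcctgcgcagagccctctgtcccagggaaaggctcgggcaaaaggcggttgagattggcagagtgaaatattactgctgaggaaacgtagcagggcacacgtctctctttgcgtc
Nr1d1 inside the gene: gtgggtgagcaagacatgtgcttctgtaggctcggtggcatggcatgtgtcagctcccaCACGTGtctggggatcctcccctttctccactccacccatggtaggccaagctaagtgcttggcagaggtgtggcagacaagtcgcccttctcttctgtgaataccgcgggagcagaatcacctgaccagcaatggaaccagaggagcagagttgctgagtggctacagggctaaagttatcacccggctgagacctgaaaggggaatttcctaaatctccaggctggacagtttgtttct
Matches printed here do not overlap one another. Cry2 held an E'-box on the opposite strand 212 to 207 bases before its start site. Among 33469 RefSeq windows of the same length, 6.42% hold the E-box, 4.83% the E'-box, 1.01% either D-box and 2.63% the ROR element core, so a match describes these letters and not a bound site.

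The arrays had median log2 values of 5.33 to 5.36, and the median standard error of a difference between diets was 0.144. Of 12 ventricular heart muscle markers 11 were measured and all 11 lay above the median probe set. Atrial markers varied with the array, with a mean log2 level of 9.49 and 9.24 in Western plus DHA, 7.18 and 9.54 in Western and 8.26 and 8.49 in Control. Western plus DHA 2 and Control 1 stood apart from the other arrays: on the first principal component of all probe sets, which held 42.8% of the variance, Western plus DHA 2 scored -0.589 and Control 1 scored 0.764, and the other 4 arrays scored -0.169 to 0.162. Control 1 also had the largest log2 difference between the 3' and 5' ends of the Gapdh control, 0.678 against 0.301 to 0.469 on the other arrays, and the largest for the mean of the 4 poly-A controls, 1.06 against 0.716 to 0.796. For beta-actin the value was 1.87 in Western plus DHA 1 and 1.82 in Control 1, and 1.48 to 1.54 elsewhere.

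Bmal1, the activator whose protein pairs with CLOCK, was measured by 1 probe set (1370510_a_at). Its log2 level was 6.67 and 6.03 in Western plus DHA, 6.50 and 6.80 in Western and 6.98 and 6.35 in Control. The highest array was Control 1 and the lowest Western plus DHA 2, and the arrays of all 3 diets overlapped. The log2 difference was -0.32 ± 0.260 (SE of the limma fit, as for all errors marked ± below unless named SD) for Western plus DHA against Control, with a limma adjusted p of 0.708. It was -0.02 ± 0.260 for Western against Control and -0.30 ± 0.260 for Western plus DHA against Western. Without Western plus DHA 2 the difference between Western plus DHA and Control was 0.00, and without Western plus DHA 1 it was -0.63. Dropping Control 1 turned the difference between Western and Control to 0.30, and dropping Control 2 gave -0.33. For the 2 Western diets, leaving out the second Western plus DHA array gave 0.02, and leaving out the first gave -0.62. In whole tissue, fewer cells of a type and less RNA per cell cannot be told apart, here and in every level below.

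Clock, the partner of Bmal1, had the smallest spread between pools among the 10 representative probe sets, though not at its other probe sets. Its brightest probe set (1390199_at) read 8.15 and 8.06 in Western plus DHA, 8.04 and 8.11 in Western and 8.21 and 8.22 in Control. Both Control arrays lay above all 4 others, and the log2 differences from Control were -0.11 ± 0.120 for Western plus DHA and -0.14 ± 0.120 for Western. Leaving out Western plus DHA 2 gave -0.07 for Western plus DHA. The residual SD of this probe set exceeded that of only 5.20% of all tested probe sets. A much dimmer probe set of Clock (1369168_a_at), below the median of all probe sets, went the other way: it read 3.55 and 3.84 in Western plus DHA, 4.04 and 3.98 in Western and 3.46 and 3.48 in Control. Here both Western arrays were highest and both Control arrays lowest, with log2 differences of 0.54 ± 0.138 for Western against Control (limma unadjusted p = 0.00417, adjusted p = 1) and -0.32 ± 0.138 for Western plus DHA against Western (unadjusted p = 0.0499). That last value was -0.17 when Western plus DHA 1 was dropped, and the Western plus DHA pools differed by 0.29. Its Pearson r with the brightest Clock probe set over the 6 arrays was -0.891. The remaining Clock probe sets (1389456_at and 1380098_at) differed by -0.16 to 0.03 over the 3 comparisons and overlapped in each. At 1380098_at the Control pools differed by 0.44, with a residual SD at the 71.5th percentile of all tested probe sets. Which of these probe sets follows the main Clock transcript cannot be read from the values.

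The Per genes encode the inhibitory partners of the Cry proteins. Per1, which responds quickly to signals from outside the clock, read 7.47 and 7.33 in Western plus DHA, 7.39 and 7.36 in Western and 7.59 and 7.40 in Control (1374855_at). Control 1 was highest, and both Western arrays lay below both Control arrays, with a log2 difference of -0.12 ± 0.131. This was -0.02 without Control 1. The difference between Western plus DHA and Control was -0.10 ± 0.131, and -0.0018 without Control 1, and that between Western plus DHA and Western was 0.02 ± 0.131. Per2 read 7.996 and 7.972 in Western plus DHA, 7.95 and 7.61 in Western and 7.15 and 8.15 in Control at its brighter probe set (1368303_at). Control 1 was lowest and Control 2 highest of the 6 arrays, so the Control pools enclosed all the others. The log2 difference was 0.33 ± 0.285 for Western plus DHA against Control (limma adjusted p = 0.716), but -0.17 without Control 1 and 0.84 without Control 2. For Western against Control it was 0.13 ± 0.285, with -0.37 without Control 1 and 0.63 without Control 2. Both Western plus DHA arrays lay above both Western arrays, with a difference of 0.20 ± 0.285 that came to 0.04 when Western 2 was dropped.

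The dimmer Per2 probe set (1378560_at) did not show the gap between the Control pools, with 6.70 and 6.62 in Western plus DHA, 6.57 and 6.52 in Western and 6.55 and 6.47 in Control. The Western plus DHA arrays were the highest pair, with log2 differences of 0.15 ± 0.120 against Control and 0.11 ± 0.120 against Western. Its r with the brighter Per2 probe set was 0.162. Per3, whose protein is related to PER1 and PER2, read 7.89 and 7.65 in Western plus DHA, 7.52 and 7.52 in Western and 7.08 and 7.69 in Control (1378745_at). Western plus DHA 1 was highest and Control 1 lowest, and the Control arrays again enclosed both Western arrays. The log2 difference of 0.39 ± 0.198 for Western plus DHA against Control, 1.31-fold, had the smallest p of the clock probe sets in that comparison (limma unadjusted p = 0.0828, adjusted p = 0.582). It was 0.09 without Control 1 and 0.69 without Control 2. The difference between Western and Control was 0.14 ± 0.198, with -0.16 without Control 1 and 0.44 without Control 2. Western plus DHA exceeded Western in both arrays, by 0.25 ± 0.198, and by 0.13 when its first array was dropped. The other Per3 probe set (1388239_at) was near the bottom of the scale, at 2.84 to 3.03 on the 6 arrays.

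Cry1 and Cry2 encode the cryptochromes, the main repressors of the BMAL1 and CLOCK pair. Cry1 read 7.66 and 7.56 in Western plus DHA, 7.51 and 7.63 in Western and 7.46 and 7.39 in Control (1392640_at). Both Control arrays were lowest, with log2 differences of 0.18 ± 0.124 for Western plus DHA against Control (limma adjusted p = 0.656) and 0.14 ± 0.124 for Western against Control, which was 0.08 when Western 2 was dropped. Cry1 was 1 of 2 representative probe sets for which both Western plus DHA arrays lay above both Control arrays, the other being Nr1d2. Cry2 read 7.65 and 7.24 in Western plus DHA, 7.59 and 7.56 in Western and 7.55 and 7.59 in Control (1372548_at). Western plus DHA 2 was low and the other 5 arrays lay within 7.55 to 7.65. The differences were -0.13 ± 0.155 for Western plus DHA against Control, 0.01 ± 0.155 for Western against Control and -0.13 ± 0.155 for Western plus DHA against Western. Both differences of Western plus DHA were 0.08 when its second array was dropped. A dimmer Cry2 probe set (1369446_at) read 5.55 to 5.85.

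Nr1d1 and Nr1d2 encode the REV-ERB repressors. Nr1d1 read 8.02 and 7.67 in Western plus DHA, 7.85 and 7.94 in Western and 8.69 and 7.93 in Control (1370816_at). Control 1 stood 0.66 above the next array, while Control 2 lay within the range of the other diets. The log2 difference was -0.46 ± 0.236 for Western plus DHA against Control (limma unadjusted p = 0.0858, adjusted p = 0.586) and -0.41 ± 0.236 for Western against Control (unadjusted p = 0.118, adjusted p = 1). Without Control 1 these were -0.08 and -0.04, and without Control 2 they were -0.84 and -0.79. Between Western plus DHA and Western the difference was -0.05 ± 0.236, and 0.13 when Western plus DHA 2 was dropped.

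Nr1d2 differed by only 0.09 between the Control pools at its brightest probe set. That probe set read 9.66 and 9.68 in Western plus DHA, 9.48 and 9.26 in Western and 9.46 and 9.54 in Control (1390430_at). Both Western plus DHA arrays lay above the other 4, with log2 differences of 0.30 ± 0.130 against Western (1.23-fold, limma unadjusted p = 0.0494, adjusted p = 0.983) and 0.17 ± 0.130 against Control (adjusted p = 0.690). Leaving out 1 array moved the first between 0.19 and 0.41 and the second between 0.12 and 0.21. Western differed from Control by -0.13 ± 0.130, with overlap, and by -0.02 when Western 2 was dropped. Its next probe set (1370541_at) read 8.63 and 8.67 in Western plus DHA, 8.49 and 8.24 in Western and 8.29 and 8.59 in Control. It too was highest in both Western plus DHA arrays, with differences of 0.29 ± 0.152 against Western and 0.21 ± 0.152 against Control. These were 0.17 when Western 2 was dropped and 0.06 when Control 1 was dropped, in that order, and its r with the brightest Nr1d2 probe set was 0.920. The dimmest Nr1d2 probe set (1370540_at) read 5.69 and 5.87 in Western plus DHA, 6.24 and 5.90 in Western and 5.50 and 5.82 in Control. There both Western plus DHA arrays lay below both Western arrays (-0.29 ± 0.170), and both Western arrays above both Control arrays (0.41 ± 0.170, limma unadjusted p = 0.0433). When Western 1 was dropped these came to -0.12 and 0.24. The means of 4 marker lists also separated both Western plus DHA arrays from the other arrays. Erythroid markers were highest there, with a mean log2 level over 3 of 4 listed genes, those measured, of 8.67 and 8.72 in Western plus DHA, 8.34 and 8.31 in Western and 8.08 and 8.19 in Control. Epicardial markers, 3 of 4 measured, averaged 5.45 and 5.12 in Western plus DHA, 4.94 and 5.02 in Western and 4.83 and 4.86 in Control. Only 1 of these, Wt1, lay above the median probe set, and it was lowest in Western plus DHA 2 (6.59). Skeletal muscle markers, 5 of 6 measured, averaged 5.20 and 5.16 in Western plus DHA and 5.05 to 5.08 on the other arrays. Only 1 of these, Myh1, lay above the median probe set, and it was lowest in Western plus DHA 1 (11.92). Ventricular heart muscle markers were lowest on average in Western plus DHA, with 12.96 and 12.97 there against 13.12 to 13.18 on the other arrays. Of these, Myh7 read 11.75 and 11.45 in Western plus DHA against 12.47 to 12.66 on the other arrays. Nppb, Myl3, Actn2, Tnni3 and Mb were also lower in both Western plus DHA arrays, while Myh6, Tnnt2, Myl2, Ryr2 and Pln were not. The part of these lists in the Nr1d2 levels was not tested.

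Dbp encodes a transcription factor of clock output that acts at D-boxes. It read 8.21 and 8.04 in Western plus DHA, 8.14 and 7.93 in Western and 8.17 and 8.24 in Control (1387874_at). Both Western arrays lay below both Control arrays, with a log2 difference of -0.18 ± 0.135 that was -0.07 when Western 2 was dropped. For Western plus DHA the difference was -0.08 ± 0.135 against Control and 0.09 ± 0.135 against Western, with overlap in both. The first was -0.0033 when Western plus DHA 2 was dropped, and the second -0.02 when Western 2 was dropped.

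**Figure D1:**
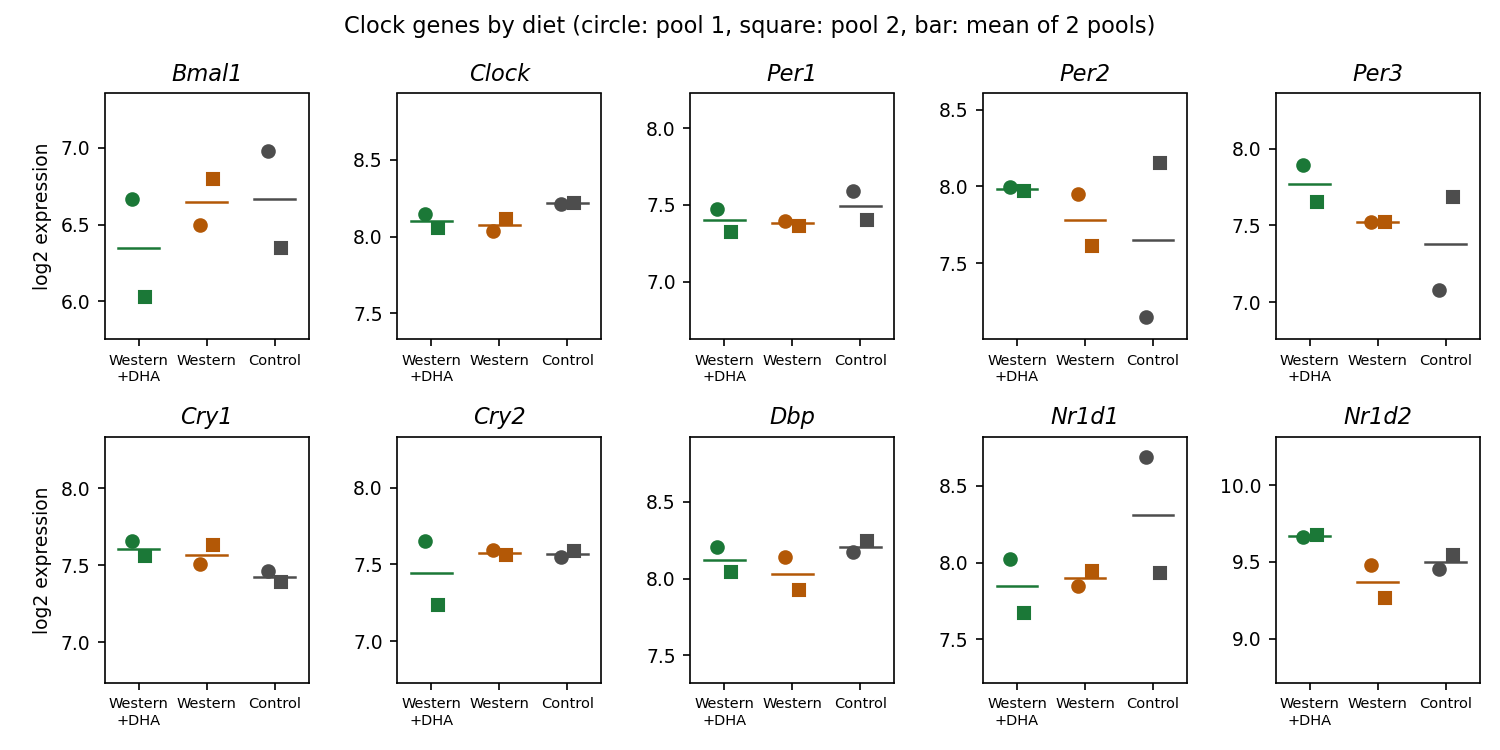
Log2 expression of the 10 clock genes at their representative probe sets, with 1 point per array of 5 pooled rats, the diets along the horizontal axis and a bar at the mean of the 2 arrays of a diet. Per2, Nr1d1, Bmal1 and Per3 show 0.61 to 1.00 between the Control pools, while Clock differs by no more than 0.09 within a diet.

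Set side by side, the mean over 2 arrays was highest in Control for Bmal1, Clock, Per1, Dbp and Nr1d1, highest in Western plus DHA for Per2, Per3, Cry1 and Nr1d2, and highest in Western for Cry2. No neighbours in these orders differed beyond their spread by the limma test. In Western plus DHA against Control, 0 of 18 clock probe sets passed at an adjusted p under 0.05, against 1 of all 31042 (0.00322%). At an unadjusted p under 0.05 there were 0 clock probe sets (0%) and 2752 of all (8.87%). Both Western plus DHA arrays lay above both Control arrays at 5 of 18 clock probe sets, against 22.0% of all probe sets, and below both at 1, against 15.1%. The median log2 difference of the 10 genes was -0.09, beside 0.03 for all 14217 genes, while over the 18 clock probe sets it was 0.03, and the median size of the difference was 0.18, beside 0.14.

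In Western against Control, 0 of 18 clock probe sets passed the limma test, as did 0% of all. At an unadjusted p under 0.05 there were 2 clock probe sets (Clock 1369168_a_at and Nr1d2 1370540_at), or 11.1%, and 877 of all, or 2.83%. Both Western arrays lay above both Control arrays at 5 clock probe sets, against 17.5% of all, and below both at 3, against 13.5%. The median log2 difference of the 10 genes was -0.07, beside 0.01 for all genes, and over the 18 probe sets it was 0.02. In Western plus DHA against Western, again 0 of 18 passed, as did 0% of all. Here 2 clock probe sets (Nr1d2 1390430_at and Clock 1369168_a_at), or 11.1%, and 1261 of all, or 4.06%, had an unadjusted p under 0.05. Both Western plus DHA arrays lay above both Western arrays at 5 clock probe sets, against 19.5% of all, and below both at 3, against 16.0%. The median difference of the 10 genes was 0.03, beside 0.01 for all genes, and over the 18 probe sets it was -0.01. In each comparison the median thus changed sign with the choice of probe sets. As shares of the 18 clock probe sets, those without overlap made up 27.8% (higher) and 5.56% (lower) for Western plus DHA against Control, and 27.8% and 16.7% in each of the other comparisons. A single clock probe set is 5.56% of the 18, so each share lay within 2 probe sets of that of all probe sets. The 3 comparisons share arrays pairwise, so their values are not independent of one another. The limma F test over the 3 diets called 0 of 18 clock probe sets, with a lowest adjusted p of 0.900. Its unadjusted p was under 0.05 at 1 of the 18 (Clock 1369168_a_at) and at 1574 of all 31042 probe sets. The authors' deposited list of 66 probe sets held 0 clock probe sets.

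**Figure D2:**
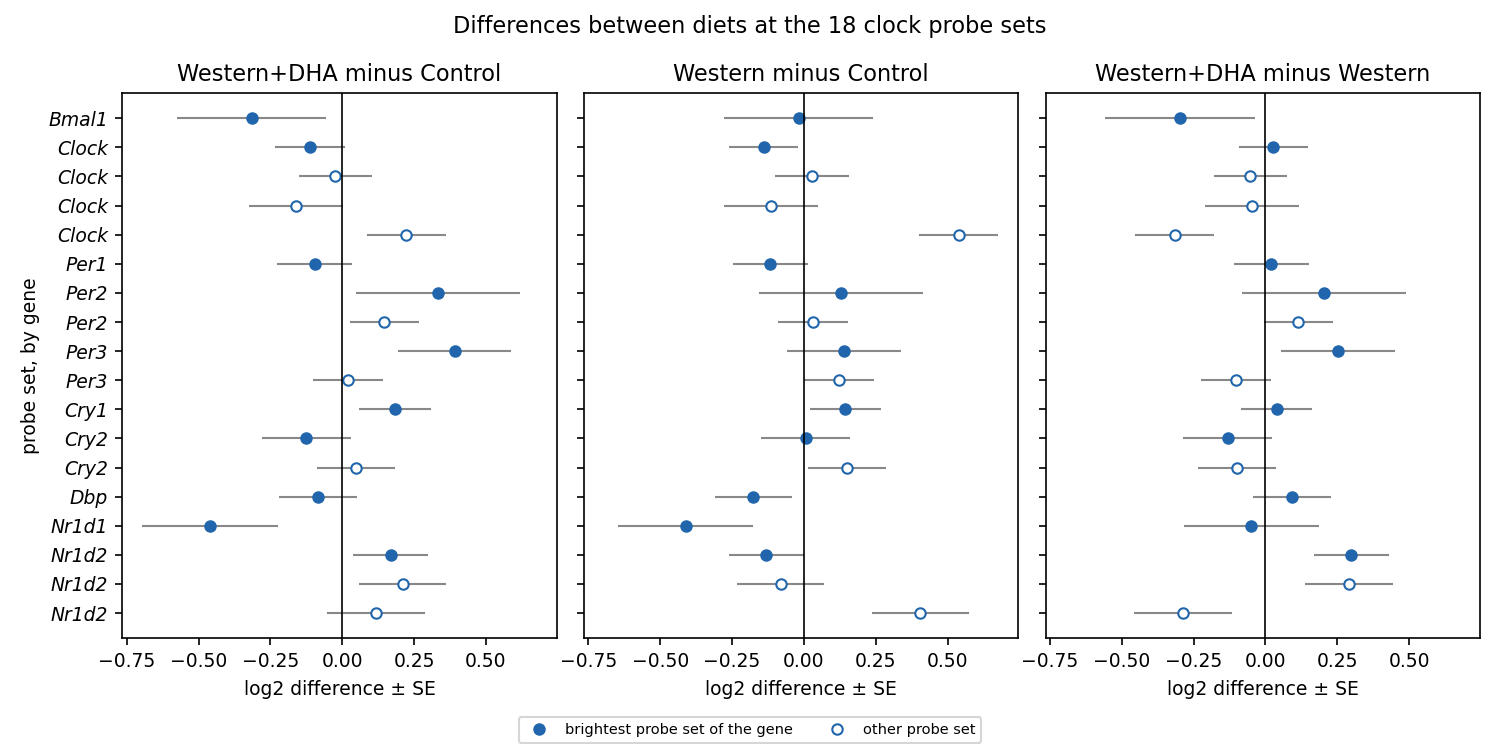
Log2 differences between diets for the 18 clock probe sets, with bars of 1 SE of the limma fit, filled points for the representative probe set of a gene and open points for its other probe sets. In Western plus DHA against Control the difference farthest below 0 is -0.46 for Nr1d1 and that farthest above 0 is 0.39 for Per3, and no probe set passed the test in any panel.

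Several members differed more between the 2 pools of a diet than between diets. In Western plus DHA the pools differed most for Bmal1, by 0.64, a distance that 3.26% of all tested probe sets reached, followed by Cry2 at 0.41 (12.5%) and Nr1d1 at 0.35 (18.6%). In Western the pools differed by 0.34 for Per2 (8.81%) and 0.30 for Bmal1 (12.3%). In Control they differed by 1.00 for Per2, which only 0.596% of probe sets reached, by 0.75 for Nr1d1 (1.87%), by 0.63 for Bmal1 (3.33%) and by 0.61 for Per3 (3.83%). A distance of at least 0.3 was seen for 3 of 10 genes in Western plus DHA, 1 in Western and 4 in Control, where 24.6%, 12.1% and 24.2% of all tested probe sets had one. Over the 3 diets the residual SD stood at the 98.5th percentile of all tested probe sets for Per2, the 97.6th for Bmal1 and the 95.9th for Nr1d1, and at the 12.7th for Cry1 and the 25.2nd for Nr1d2. The dimmer Per2 probe set stood at the 5.63rd. As a set the members were not more spread: the median residual SD was 0.142 for the 10 genes and 0.118 for the 18 clock probe sets, beside 0.141 for all.

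**Figure D3:**
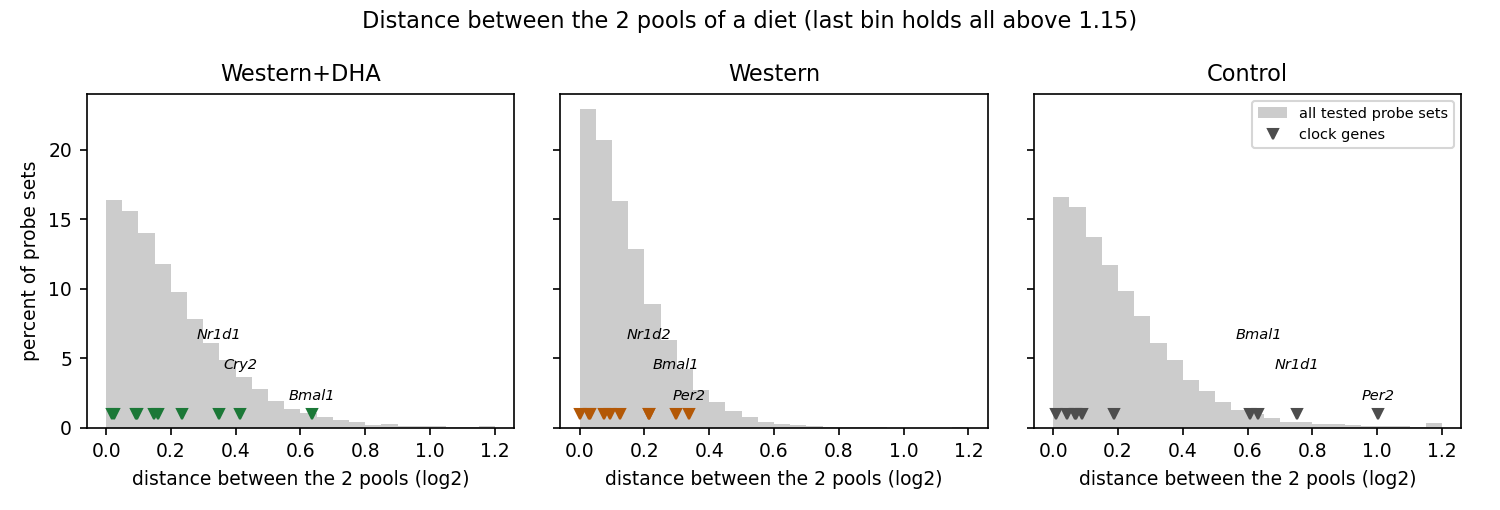
Absolute log2 distance between the 2 pools of a diet, with 1 panel per diet. Grey bars give the percent of all tested probe sets in bins of that distance and triangles mark the 10 clock genes, the 3 farthest apart being named: Bmal1 leads in Western plus DHA (0.64) and Per2 in Control (1.00), where 4 clock genes lie at 0.61 or more.

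Western plus DHA 2 and Control 1 each held 5 of the extremes of the 10 genes over the 6 arrays, more than any other array. Western plus DHA 2 was lowest for Bmal1, Per1, Cry2 and Nr1d1 and highest for Nr1d2. Control 1 was highest for Bmal1, Per1 and Nr1d1 and lowest for Per2 and Per3. Over all tested probe sets Western plus DHA 2 was highest at 25.5% and lowest at 20.3%, and Control 1 was highest at 21.0% and lowest at 27.6%. In Control 1, Nr1d1 and Bmal1 were thus high together, and Per2 and Per3 were low while Per1 was not.

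Genes of the wider clock that were on the list also reached extremes in these arrays. Npas2, which can stand in for Clock, read 6.45 and 6.03 in Western plus DHA, 6.49 and 6.37 in Western and 7.06 and 6.14 in Control, with Control 1 above the next array by 0.57. Nfil3, a repressor at D-boxes, read 6.85 and 6.27 in Western plus DHA, 6.75 and 6.99 in Western and 7.46 and 6.59 in Control, with Control 1 highest by 0.47. Bhlhe40, a repressor at E-boxes, read 6.90 and 6.11 in Western plus DHA, 6.31 and 6.70 in Western and 5.42 and 6.26 in Control, with Control 1 lowest by 0.69. Both Control arrays of Bhlhe40 lay below both Western arrays. The D-box activators Hlf and Tef were lowest in Control 1 as well, at 4.54 for Hlf, against 4.77 to 5.21 on the other arrays, and at 7.57 for Tef, against at least 7.69 elsewhere. At the representative probe sets Control 1 was thus high for Bmal1, Npas2 and Nfil3 and low for Per2, Per3, Hlf, Tef and Bhlhe40. There Nr1d1 and Per1 went with Bmal1, and Dbp differed little (8.17 in Control 1). The mean log2 level of 9 immediate early genes was also highest in Control 1 and lowest in Western plus DHA 2. That mean was 6.61 and 6.18 in Western plus DHA, 6.58 and 6.84 in Western and 7.23 and 6.58 in Control. Of these genes Egr3 went the other way, with 3.96 in Control 1 and 4.41 in Western plus DHA 2. The mean of the endothelial markers, 4 of 5 measured, had the same extremes, with 8.78 and 8.46 in Western plus DHA, 8.74 and 8.83 in Western and 8.86 and 8.60 in Control. Of these genes only Tie1 was highest in Control 1, at 8.65. Vwf was highest in Western 2, and Kdr and Pecam1 were lower in Control 1 than in either Western array. The part of both lists in the clock levels was not tested, nor was that of the 3' to 5' differences given above.

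**Figure D4:**
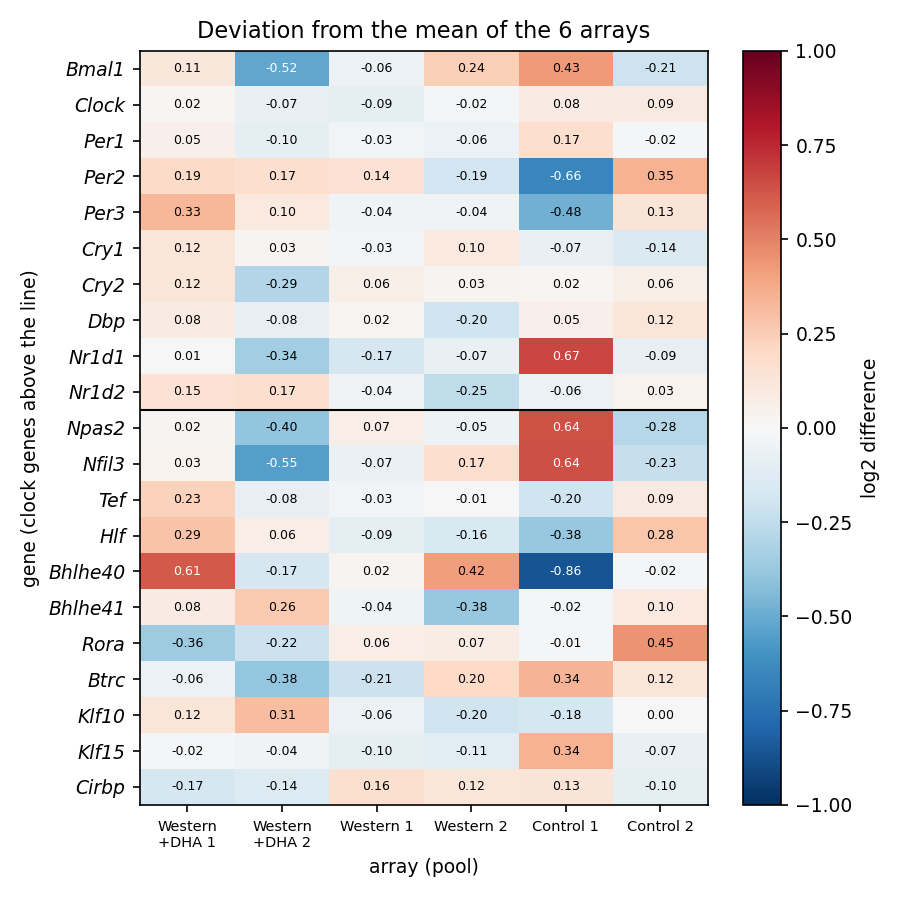
Deviation of each array's log2 level from the mean of the 6 arrays, for the 10 clock genes and the named genes of the wider clock list. Western plus DHA 2 is the lowest array for Bmal1 (-0.52) and Nfil3 (-0.55), and Control 1 holds both the lowest value, for Bhlhe40 (-0.86), and the highest, for Nr1d1 (0.67).

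Over the 6 arrays some members ran with Bmal1 and others against it, though no pair passed adjustment. Of 45 pairs of members 24 had a Pearson r above 0 and 21 below, 2 had an exact permutation p under 0.05, and 0 passed after Benjamini-Hochberg adjustment over the 45 pairs. For each pair r was also taken without the 2 arrays farthest from the median of its first-named gene, which differ by gene: Western plus DHA 2 and Control 1 for Bmal1, Western plus DHA 1 and Control 1 for Per1 and Per3, Western 2 and Control 1 for Per2, and Western plus DHA 2 and Western 2 for Nr1d2. With 6 arrays a lone pair cannot go below an adjusted p of 0.0625. Per1 and Nr1d1 had r = 0.951 (rho = 0.829, exact permutation p = 0.00556, adjusted p = 0.25), and r = 0.769 without the 2 farthest arrays of Per1. Per2 and Per3 had r = 0.885 (rho = 0.943, exact permutation p = 0.0181, adjusted p = 0.406), and r = 0.198 without the 2 farthest arrays of Per2. Their r was 0.522 without Control 1 alone and 0.893 over deviations from the diet means. Leaving out the extreme arrays of a gene narrows its range, so a lower r cannot show what a relation rests on. Bmal1 and Nr1d1 had r = 0.807 (rho = 0.886, exact permutation p = 0.0514, adjusted p = 0.607) with r = 0.413 without the 2 farthest arrays of Bmal1, but 0.838 without Control 1 alone and 0.920 over deviations from the diet means. Bmal1 and Per2 had r = -0.761 (rho = -0.714, exact permutation p = 0.0792, adjusted p = 0.607) and r = -0.869 without the 2 farthest arrays of Bmal1. Their r was -0.576 without Control 1 alone and -0.72 over deviations from the diet means. Per2 and Nr1d1 had r = -0.836 (exact permutation p = 0.0847), but -0.0801 without Control 1. Without that array 34 of the 45 pairs kept their sign, an alternative chosen after the data were seen. Bmal1 and Dbp, known to run in opposite phases, had r = -0.0056.

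Some of these members also correlated with the main axis of the arrays, and the part of that axis in the pairs above was not tested. The r with the first component of all probe sets was 0.929 for Nr1d1, 0.891 for Bmal1, 0.810 for Per1, -0.854 for Per2 and -0.808 for Per3, against 0.112 for Dbp and -0.287 for Cry1. Of the 14216 other genes, 22.6% had an r of size 0.8 or more with Bmal1, 21.2% with Nr1d1 and 17.1% with Per2, but 2.36% with Dbp and 3.88% with Cry1. Between 5 members (Bmal1, Nr1d1, Nr1d2, Per2 and Per3) and the 22 measured genes of the wider list 110 pairs were computed, and the smallest adjusted p of Pearson's r was 0.0764. An exact permutation p under 0.05 was seen for 19 of the 110, and 0 passed after adjustment. Bmal1 with Csnk1d of the wider list (r = 0.943) and Per2 with Hlf (r = 0.893) were among the pairs at that smallest adjusted p. Bmal1 and Nfil3 had r = 0.971 (rho = 1.00, exact permutation p = 0.00278, adjusted p = 0.0764), with 0.994 without the 2 farthest arrays. Per3 and Hlf had r = 0.925 (rho = 1.00, exact permutation p = 0.00139, the smallest that 6 arrays can give, adjusted p = 0.0764) and 0.941 without the 2 farthest. Nr1d2 and Bhlhe41, an E-box repressor related to Bhlhe40, had r = 0.950 (rho = 0.886, exact permutation p = 0.00556, adjusted p = 0.102), and 0.784 without the 2 farthest. Bmal1 and Npas2 had r = 0.859 (rho = 0.771, exact permutation p = 0.0333, adjusted p = 0.270), and 0.550 without the 2 farthest.

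**Figure D5:**
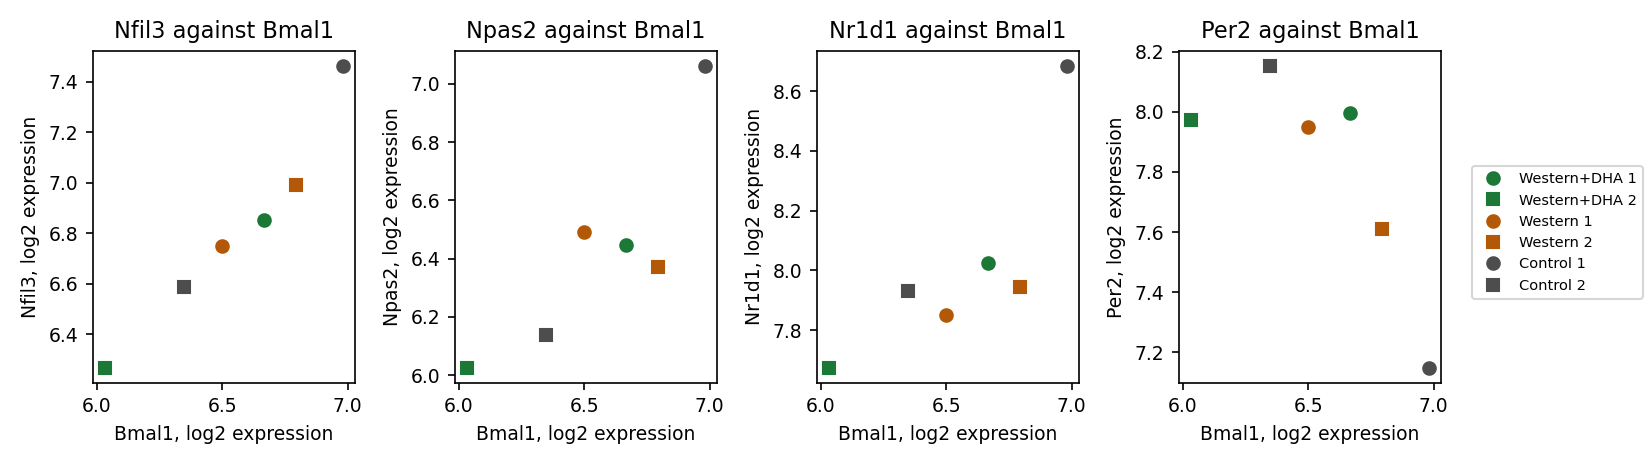
Log2 expression of Nfil3, Npas2, Nr1d1 and Per2 (vertical axes) against that of Bmal1 (horizontal axes), with 1 point per array coloured by diet. Nfil3 lies near a line with Bmal1 (r = 0.971), while for Nr1d1 (r = 0.807) Control 1 lies far above the other arrays and for Per2 (r = -0.761) far below them.

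The genes with the pattern most like Bmal1 over the 6 arrays, among 2900 genes at or above the median level and with a range of at least 0.5, were Zfp36 (r = 0.996), Lamc1 (0.995), Sgca, Drg2 and Atp6v0c (0.991 each). The most opposite were Nadk2 (-0.995), Azin1 (-0.993), Kif16b (-0.981), Rimoc1 (-0.980) and Fip1l1 (-0.979). For Dbp the most alike of 2901 genes were Colec11 (0.966), Slfn4 (0.857), Creb1 (0.839), Nectin3 (0.810) and Ret (0.797), and the most opposite Rfx4 (-0.924), Gadl1 (-0.911), Pgap3 and Chrna1 (-0.876 each) and Crym (-0.850). The likest genes of Bmal1 reached higher r than those of Dbp, over the same 6 arrays.

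Of the 26 genes of the wider clock list 22 were measured, by 46 probe sets. At their representative probe sets 0 passed the limma test in any comparison, with 2 at an unadjusted p under 0.05 in Western plus DHA against Control, 0 in Western against Control and 2 in Western plus DHA against Western. As shares of the 22 these are 9.09%, 0% and 9.09%, beside 8.45%, 1.98% and 3.52% of all representative probe sets. Their median log2 differences were 0.00, -0.06 and 0.00 in that order. Rora, the activator that competes with the REV-ERB receptors at ROR elements, read 5.57 and 5.71 in Western plus DHA, 5.99 and 6.00 in Western and 5.92 and 6.38 in Control. Both Western plus DHA arrays were lowest, with log2 differences of -0.51 ± 0.166 against Control (limma unadjusted p = 0.0149, adjusted p = 0.562) and -0.36 ± 0.166 against Western. Leaving out 1 array moved the first between -0.74 without Control 1 and -0.28 without Control 2. A dimmer Rora probe set differed by 0.01 and 0.06 in these comparisons, with overlap.

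Btrc, part of a ubiquitin ligase that marks PER proteins for breakdown, read 6.52 and 6.19 in Western plus DHA, 6.36 and 6.77 in Western and 6.91 and 6.70 in Control, and differed by -0.45 ± 0.182 between Western plus DHA and Control (limma unadjusted p = 0.0370, adjusted p = 0.562). This was -0.29 when Western plus DHA 2 was dropped, and the dimmer Btrc probe sets differed by -0.29 and -0.27. Bhlhe41 read 8.45 and 8.63 in Western plus DHA, 8.33 and 7.99 in Western and 8.35 and 8.47 in Control. Like Nr1d2 it was higher in both Western plus DHA arrays than in both Western arrays, by 0.39 ± 0.153 (limma unadjusted p = 0.0346, adjusted p = 0.983), with 0.22 without Western 2. Klf10, a clock-controlled zinc finger factor, read 8.79 and 8.98 in Western plus DHA, 8.61 and 8.47 in Western and 8.49 and 8.67 in Control. The Western plus DHA pair was highest, by 0.35 ± 0.138 against Western (limma unadjusted p = 0.0354, adjusted p = 0.983) and 0.30 ± 0.138 against Control.

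Bhlhe40 differed by 0.66 ± 0.321 in both Western plus DHA and Western against Control, and by 0.24 in both without Control 1. Cirbp, the cold-inducible RNA-binding protein gene, differed by -0.30 ± 0.130 between Western plus DHA and Western, with both Western plus DHA arrays, at 7.76 and 7.79, below both Western arrays, at 8.09 and 8.05. Dimmer Cirbp probe sets, both below the median of all probe sets, differed by -0.33, with overlap, and by -0.89 there. Their Western plus DHA pools lay 1.33 and 1.07 apart, in that order. Klf15, a clock-controlled regulator of heart metabolism, read 8.59 and 8.57 in Western plus DHA, 8.51 and 8.50 in Western and 8.95 and 8.53 in Control. It differed by -0.24 ± 0.156 between Western and Control, and by -0.03 without Control 1. Dimmer Klf15 probe sets differed by -0.57 and -0.04 in that comparison. Nfil3 differed by -0.47 ± 0.289 and Npas2 by -0.36 ± 0.277 between Western plus DHA and Control, and these were -0.03 and 0.10 without Control 1.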

How the data were processed

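The deposited values are log2 expression levels per probe set, which the authors obtained by RMA; the submitters' processing notes name R 2.11.0. RMA as a method brings all arrays to 1 distribution, so total RNA is not compared. Labelling began with 5 µg of RNA per pool, per the labels' protocols. The build and earlier steps were not given in the sources used here. Refitted in limma with control probe sets included, the log2 differences and p-values of the authors' deposited table came back within 5e-08 and 5.39e-08.

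Of 31099 probe sets 57 controls were left out. Symbols are those of the platform annotation, brought up to date with RefSeq's GRCr8 gene table. Single symbols were found for 20826 tested probe sets, several for 436 and none for 9780. A gene was represented by its probe set of highest mean. The test was that of limma 3.58.1, run in R 4.3.3 (lmFit, contrasts, eBayes), with 1 mean per diet, 6 arrays in 1 fit, 3 residual and 5.28 prior degrees of freedom, and Benjamini-Hochberg adjustment over 31042 probe sets per comparison at a threshold of 0.05. The steps were tested on simulated data. Permutation p-values of correlations came from all orderings of the 6 arrays, which take no account of diet. They were added to what had been planned as a description. The number of arrays limits the precision.

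The members, the wider clock list and the marker lists were chosen with earlier results of these data known. Named were all member probe sets, from the wider list the 3 with the smallest p per comparison and Npas2, Ciart, Nfil3, Tef, Hlf, Bhlhe40 and Bhlhe41, and for Bmal1 and Dbp the 5 genes most alike and most opposite. Of the wider list 4 genes, Ciart among them, were not analysed here. Mean log2 levels per marker list on the 6 arrays ranged from 12.96 to 13.18 for ventricular muscle, 5.05 to 5.20 for skeletal muscle, 4.55 to 5.07 for adipocytes, 10.03 to 10.38 for fibroblasts, 8.46 to 8.86 for endothelium, 6.40 to 6.90 for macrophages, 4.88 to 5.44 for neutrophils, 4.83 to 5.45 for epicardium and 8.94 to 9.06 for glucocorticoid and fasting genes.

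The labels name no batch. Replicate numbers did not pair the arrays: the differences between replicate 1 and 2 correlated between diets with r = -0.228 (Western plus DHA and Western), 0.202 (Western plus DHA and Control) and -0.206 (Western and Control) across probe sets. Over the clock probe sets these were -0.52, 0.52 and -0.63 in that order, again of both signs. Alternatives changed the normalization (quantile again, median centring or cyclic loess), the prior (trend and robust), the weights of arrays, the arrays fitted (only the 4 compared, or all but 1), the probe sets (without dim ones, or representatives only) or the design (replicate block). For correlations they were Spearman's rho, deviations from the diet means and, added after seeing the data, the arrays without Control 1.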

Additional observations from a re-analysis of the deposited data

How the results depend on the processing

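With 2 pools per diet the precision is low, and a difference that missed the threshold is not shown to be absent. The count of clock probe sets called was 0 in all 3 comparisons under every alternative run, with lowest adjusted p-values of 0.141 for the first diet pair (Western plus DHA, Control), 0.435 for the next (Western, Control) and 0.649 for the last (Western plus DHA, Western) in limma. Of 260 recomputed differences per comparison, 13, 14 and 12 changed sign in that order without a call. Many of the 260 could not change sign. The replicate block, the trend and robust prior and the removal of dim probe sets leave a log2 difference as it was. So does dropping an array of the diet outside the comparison. These counts therefore cannot tell how stable the signs are. Leaving out 1 array changed the sign at 8, 8 and 10 of the 18 clock probe sets, and changed the sign or moved the value by more than 1.5 times at 15, 16 and 18. The median log2 difference of the 10 genes lay between -0.16 and 0.04, -0.11 and -0.04, and -0.01 and 0.11 for those 3 pairs.

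Over all probe sets, Western plus DHA against Control called 1, but 0 with representative probe sets, 0 with the 4 arrays of those diets, and 0 to 2 when 1 array was left out. Western plus DHA against Western called 0, but 1 with quantile normalization again, 1 with median centring, 1 with a trend and robust prior and 1 with array weights. The F test called 1, but 0 with representative probe sets and 0 in each fit that left out 1 array. With the replicate block, 0 clock probe sets were called in each comparison and the F test called 1, so it changed no call. Whether arrays with the same replicate number share anything else cannot be told, since the labels name no batch and the pairing check gave correlations of both signs. The cause of these changes was not tested.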
